A study of Mus musculus with 15 samples.

Results

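The immediate early and activity-regulated genes described here are 35 genes that neurons switch on within minutes to hours of stimulation. They were chosen by name, as members of this class, out of 45777 features in the deposited tables. The 35 are the AP-1 subunits and partners Fos, Fosb, Fosl2, Jun, Junb, Jund, Atf3 and Maff, the zinc finger factors Egr1, Egr2, Egr3 and Egr4, and the orphan nuclear receptors Nr4a1, Nr4a2 and Nr4a3. They also hold the neuron-restricted genes Arc, Npas4 and Nptx2, the Kruppel-like factors Klf2, Klf4 and Klf10, and the phosphatases Dusp1, Dusp4, Dusp5 and Dusp6. The remaining members are Ier2, Ier3, Ier5, Btg2, Gadd45b, Gadd45g, Sik1, Trib1, Csrnp1 and Tiparp. All 35 were found in the tables and all 35 passed the filter on low counts in both generations.

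The animals were wild-type male mice of the outbred ICR strain, 7 weeks old, and RNA came from their flash-frozen striatum. Their lineages began with males that, at 6 weeks of age, received methamphetamine (METH) at 5 mg/kg or saline at 10 mL/kg under the skin for 21 days and were then mated with untreated females. The F1 mice are sons of these founders and the F2 mice are sons of F1 males and untreated females, so none of the sequenced animals is described as having received METH itself. There were 3 F1 METH, 4 F1 saline, 4 F2 METH and 4 F2 saline libraries, 1 per mouse. The labels read here name no litter, founder or hour of collection, so the p-values measure the spread between these animals, some of which may share a litter.

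Immediate early genes are transcribed from a ready promoter, without new protein synthesis, when calcium or growth factor signals activate the transcription factors CREB and SRF. Their mRNAs decay quickly, so a level read in tissue reflects the recent activity of its cells and the handling of the animal as well as any lasting state. In the striatum, psychostimulants acting through dopamine receptors induce Fos, Egr1, Arc and Nr4a1 in spiny projection neurons, and repeated exposure is known for accumulation of truncated FosB proteins.

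Total counts per library were 32805918 to 38514778 in F1 METH, 35044343 to 37659436 in F1 saline, 31563806 to 47199267 in F2 METH and 34622167 to 50573906 in F2 saline. Markers of spiny projection neurons, the main striatal cell type, were high in every library (summed level from 9097 to 15857 CPM, read counts scaled to a common library total). Markers of cortical excitatory neurons, which the striatum lacks, varied: 16 such genes summed to 315 to 883 CPM in F1 METH, 356 to 1159 in F1 saline, 262 to 492 in F2 METH and 244 to 538 in F2 saline, and none of the 16 was at 0 in all libraries. Of these genes, Lamp5 alone averaged 103 CPM in F1 METH and 112 CPM in F1 saline. Itpka averaged 119 CPM in F2 METH and 107 CPM in F2 saline. Of the 15 other than the cortical marker Slc17a7, 10 were called as rising with it, as described below. How much of the sums came from cortical neurons was not tested. In bulk tissue, fewer cells of a type and less RNA per cell cannot be told apart. The CPM values given were scaled within the table of 1 generation, so levels are compared between groups of a generation and not between generations. The log2 CPM used below for spread within groups, correlations and the Slc17a7 association was scaled over all 15 libraries.

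No member passed the test for a change between METH and saline lineages in either generation. In F1, edgeR's quasi-likelihood test called 0 of 18499 genes at an adjusted p under 0.05, which is 0% of the genes tested, and so 0 of the 35 members. DESeq2 called 11 genes and limma-voom 3, with no member among them in any of the fits. The unadjusted p was under 0.05 for 774 genes, 4.18% of the total, and for 3 members, Fos, Jun and Btg2. The fitted log2 fold change of METH over saline was above 0 for 5 members and below 0 for 30, against 49.1% of all genes above 0, and its median was -0.18 over the members. Leaving out F1 METH 2 put 14 members above 0 with a median of -0.04, and leaving out F1 saline 1 or F1 saline 4 put 11 above 0, with medians of -0.095 and -0.14. Leaving out F1 METH 1 put 3 above 0 with a median of -0.42, F1 saline 3 put 2 with a median of -0.37, and F1 saline 2 put 3 with a median of -0.23. The median over all genes lay between -0.0099 and 0.0080 in these fits. Members with an unadjusted p under 0.05 numbered 5 without F1 METH 1, beside 790 of the 18951 genes then tested. They numbered 7 without F1 saline 3, beside 650 of 18171 genes. There was 1 without F1 saline 1 (671 of 18247 genes) and 1 without F1 saline 4 (1247 of 18203). There were 0 without F1 METH 2 (820 of 18876 genes), F1 METH 3 (787 of 18914) or F1 saline 2 (513 of 18323). The count of members below 0 in F1 therefore rests in part on single libraries, and it is not a test, because the members vary together between animals, as described further on.

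In F2, edgeR called 0 of 18093 genes, again 0% of those tested, and 0 members, while DESeq2 called 7 genes and limma-voom 1. The unadjusted p was under 0.05 for 863 genes, 4.77%, and for 0 members. The fold change was above 0 for 20 members and below 0 for 15, against 49.5% of all genes above 0, with a median of 0.04 over the members. Without F2 saline 1 the members above 0 numbered 9, and without F2 METH 3 they numbered 10, with medians of -0.14 and -0.11. Without F2 saline 2 and F2 saline 3, a pair of libraries high in heat shock chaperones and also the highest F2 saline libraries for the members, 30 members were above 0 with a median of 0.30, and 9 had an unadjusted p under 0.05, beside 751 of the 18823 genes then tested; 0 members and 4 genes were called. This last setting was chosen with earlier results of these data known and leaves 2 saline libraries, among them F2 saline 1, the lowest of its group for most members, so a higher METH over saline ratio follows from the removal itself.

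The METH effect in F2 minus that in F1 was tested as an interaction over all 15 libraries. EdgeR called 1 of 19308 genes, 0.00518%, which is not a member and was lost when any library other than F1 saline 2 was left out; DESeq2 called 7 and limma-voom 0. The unadjusted p was under 0.05 for 943 genes, 4.88%, with Btg2 and Fos among them. The difference was above 0, meaning higher METH over saline in F2 than in F1, for 28 members against 49.9% of all genes, and below 0 for 7 against 50.1%, with a median of 0.16, and above 0 for 18 members without F1 METH 2. In no member did all METH libraries lie above all saline libraries, or all below, in either generation. Among all genes tested, such complete separation upward was found in 2.97% in F1 and 1.19% in F2, and downward in 2.61% in F1 and 1.32% in F2.

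**Figure D1:**
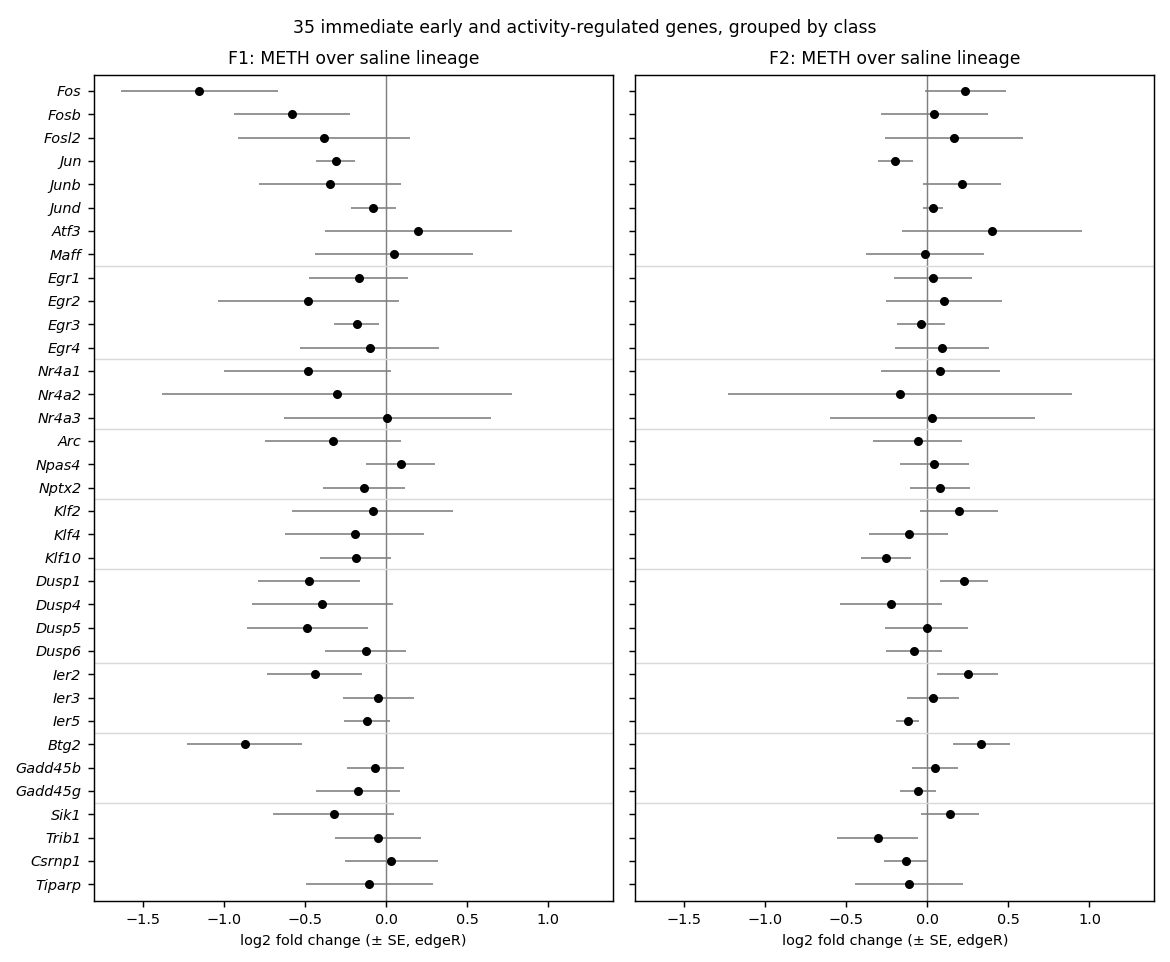
Fitted log2 fold change of METH over saline lineage for each of the 35 members, in F1 and in F2, with bars of 1 standard error around each point; the vertical line marks 0. In F1 30 of the 35 points lie below 0 and in F2 15 do, and no member passed an adjusted p of 0.05 in either generation.

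Fos and Btg2 had the largest fitted differences among the members at an unadjusted p under 0.05. Nr4a1 and Junb moved with the other members between animals. Npas4 expression is restricted to neurons, and Nr4a2 moved with a cortical marker instead. The upstream sequences of these 6 are shown. In the order of the members described in full, theirs were the first available that held a searched motif. That each sequence holds a motif was therefore fixed by the choice. Each is the 250 bases before the RefSeq start site on GRCm38.p6, 5′ to 3′ on the gene's own strand: Fos at chr12:85473640-85473889 on the plus strand, Npas4 at chr19:4989972-4990221 on the minus strand, Nr4a1 at chr15:101266596-101266845 on the plus strand, Junb at chr8:84978749-84978998 on the minus strand, Btg2 at chr1:134079156-134079405 on the minus strand, and Nr4a2 at chr2:57124004-57124253 on the minus strand. All lie upstream of a transcript's first exon, and the windows of Npas4 and Nr4a1 lie inside the gene's annotated span. Capitals mark matches on either strand to the cAMP response element (CRE, TGACGTCA), its shorter core TGACG, or the EGR site GCGNGGGCG; a full CRE contains CRE cores and is marked once.
Fos: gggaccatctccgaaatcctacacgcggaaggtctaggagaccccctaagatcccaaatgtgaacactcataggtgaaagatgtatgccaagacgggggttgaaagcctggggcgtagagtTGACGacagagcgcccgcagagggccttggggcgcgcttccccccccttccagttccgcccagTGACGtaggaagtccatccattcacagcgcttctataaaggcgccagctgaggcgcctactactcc
Npas4: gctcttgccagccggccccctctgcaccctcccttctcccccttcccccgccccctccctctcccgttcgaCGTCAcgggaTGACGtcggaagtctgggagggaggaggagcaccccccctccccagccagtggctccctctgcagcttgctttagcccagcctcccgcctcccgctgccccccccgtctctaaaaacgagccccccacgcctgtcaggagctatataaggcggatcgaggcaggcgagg
Nr4a1: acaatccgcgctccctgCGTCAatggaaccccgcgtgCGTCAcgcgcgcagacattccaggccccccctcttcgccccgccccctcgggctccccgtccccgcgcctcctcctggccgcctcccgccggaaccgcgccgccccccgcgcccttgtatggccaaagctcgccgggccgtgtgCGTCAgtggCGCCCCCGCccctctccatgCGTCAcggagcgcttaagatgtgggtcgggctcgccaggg
Junb: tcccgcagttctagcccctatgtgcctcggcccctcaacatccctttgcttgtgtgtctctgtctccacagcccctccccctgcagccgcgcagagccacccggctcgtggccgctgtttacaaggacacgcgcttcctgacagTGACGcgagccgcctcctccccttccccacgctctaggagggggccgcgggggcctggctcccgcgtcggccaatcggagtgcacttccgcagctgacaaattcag
Btg2: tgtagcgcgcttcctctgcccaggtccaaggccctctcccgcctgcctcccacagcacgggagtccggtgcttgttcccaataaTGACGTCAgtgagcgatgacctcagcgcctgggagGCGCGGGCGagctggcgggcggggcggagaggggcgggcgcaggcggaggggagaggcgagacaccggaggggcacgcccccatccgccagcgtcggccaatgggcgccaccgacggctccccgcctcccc
Nr4a2: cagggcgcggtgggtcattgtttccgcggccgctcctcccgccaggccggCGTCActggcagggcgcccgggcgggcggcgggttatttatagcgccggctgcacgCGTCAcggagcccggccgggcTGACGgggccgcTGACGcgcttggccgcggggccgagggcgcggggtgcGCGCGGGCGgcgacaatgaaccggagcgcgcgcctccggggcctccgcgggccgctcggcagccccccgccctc

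The Fos window held CRE cores whose first bases lie 129 and 66 bases before the start, and the Npas4 window held them at 179 and 169 bases. Nr4a1 and Nr4a2 each held 4 CRE cores and 1 EGR site, which lay 60 bases before the start in Nr4a1 and 74 bases before it in Nr4a2. Junb held 1 CRE core, 106 bases upstream. Btg2 held a full CRE at 166 bases and an EGR site at 131 bases. Of the 35 members, 26 matched the RefSeq promoter table. A CRE core was present in 17 of these 26 (65.4%) against 19.8% of 27025 genes, and the EGR site in 9 (34.6%) against 5.33%. The full CRE was present in 3 of 26 against 1.77% of genes, and the CArG box, the sequence SRF binds, in 2 of 26 against 1.62%. The AP-1 site TGANTCA was found in 1 of 26 against 7.82%, and the NR4A site AAAGGTCA (NBRE) in 0 of 26 against 1.55%. The shares over all genes were not matched to the members for base composition or for the number of start sites per gene, and the differences were not tested. These are letter matches on either strand in a short window and do not show binding.

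Per unit of transcript length, in the deposited TPM (transcript counts corrected for length and scaled per library), the members ranged widely in level. The median over the 15 libraries was highest for Egr1 (335 TPM), Arc (247.5 TPM), Nr4a1 (203 TPM), Junb (162 TPM), Egr3 (149 TPM) and Jund (119 TPM), the 6 members at or above 100 TPM. In all, 24 members had a median of at least 10 TPM. Maff, a small partner of AP-1 type factors, was lowest at 0.683 TPM, and Atf3, a stress-induced member of the ATF family, had 0.759 TPM. Neighbours in this order overlapped: Egr1 ranged from 162 to 482 TPM over the libraries and Arc from 86.7 to 414 TPM. Nr4a2, a receptor needed by midbrain dopamine neurons and also made in cortex, had the widest range, from 0.332 to 30.2 TPM, a 90.9-fold span. Nr4a3 spanned 16.0-fold and Fosl2 11.5-fold, while Jund, an AP-1 subunit made in resting cells too, spanned 1.55-fold.

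Of the AP-1 subunits, which pair to bind DNA at the AP-1 site, Fos (chr12:85473890-85477274 on GRCm38.p6) had the largest fitted difference between the F1 groups. Fos had 19.6, 6.55 and 14.8 CPM in F1 METH mice, against 32.3, 33.9, 10.8 and 44.2 CPM in F1 saline mice. The METH libraries were all below 3 of the saline libraries, and F1 saline 3 lay among them. The means were 13.6 ± 6.59 CPM (SD, n = 3) in F1 METH and 30.3 ± 14.0 CPM (SD, n = 4) in F1 saline. The fitted log2 fold change was -1.15 (SE 0.48), with an unadjusted p of 0.0424 and an adjusted p of 0.994 from edgeR, so it did not pass the test. In F2, Fos had 37.1, 34.2, 32.8 and 40.9 CPM in METH mice, against 14.9, 42.3, 38.9 and 27.7 CPM in saline mice. The 4 F2 METH libraries sat inside the range of the F2 saline libraries. The log2 fold change was 0.23 (SE 0.25, edgeR adjusted p = 0.967). The F2 effect minus the F1 effect was 1.37 (SE 0.58), with an unadjusted p of 0.0302 and an adjusted p of 0.958.

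Jun, the usual partner of Fos, varied little. It had 34.7, 27.1 and 29.8 CPM in F1 METH mice and 39.8, 42.7, 33.3 and 36.4 CPM in F1 saline mice. One METH library, F1 METH 1, lay above F1 saline 3, and otherwise the METH libraries were lower. The log2 fold change was -0.31 (SE 0.12, unadjusted p = 0.0285, edgeR adjusted p = 0.994). In F2, Jun had 33.5, 33.8, 38.5 and 32.9 CPM in METH mice and 32.9, 44.7, 45.5 and 36.6 CPM in saline mice, with a log2 fold change of -0.20 (SE 0.11, edgeR adjusted p = 0.96). Those groups overlapped, with F2 saline 1 level with the lowest METH libraries.

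Junb, an AP-1 subunit that also restrains Jun, had 136, 56.1 and 65.9 CPM in F1 METH mice, against 101, 109, 47.5 and 179.9 CPM in F1 saline mice. In F2 it had 115, 135, 164 and 125 CPM in METH mice, against 62.3, 144, 161 and 98.0 CPM in saline mice. The groups overlapped in both generations, and the log2 fold changes were -0.34 (SE 0.44) in F1 and 0.22 (SE 0.24) in F2. Fosl2, which encodes Fra-2, had 58.1, 12.8 and 43.4 CPM in F1 METH mice and 70.9, 45.3, 19.2 and 63.3 CPM in F1 saline mice. In F2 Fosl2 had 44.3, 58.0, 124 and 42.4 CPM in METH mice and 22.8, 87.4, 83.1 and 48.3 CPM in saline mice. Its lowest libraries were F1 METH 2, F1 saline 3 and F2 saline 1, the same as for Junb in each of those groups, and its log2 fold changes were -0.38 (SE 0.53) in F1 and 0.16 (SE 0.42) in F2. Fosb had 17.7, 6.71 and 11.6 CPM in F1 METH mice and 19.3, 17.1, 10.5 and 25.0 CPM in F1 saline mice, a log2 fold change of -0.58 (SE 0.36) that did not pass the test. The counts are per gene, so the truncated FosB transcript was not separated. Atf3, at the low end in level, had 0.992, 0.312 and 0.756 CPM in F1 METH mice and 0.469, 0.621, 0.212 and 1.08 CPM in F1 saline mice. In F2 Atf3 had 0.263, 0.769, 1.65 and 0.389 CPM in METH mice and 0.537, 0.262, 0.902 and 0.587 CPM in saline mice. Its groups overlapped, with log2 fold changes of 0.20 (SE 0.58) in F1 and 0.40 (SE 0.55) in F2. The log2 fold change of Jund was -0.08 (SE 0.14) in F1 and 0.04 (SE 0.06) in F2, and that of Maff was 0.05 (SE 0.49) in F1 and -0.02 (SE 0.36) in F2. Over the 8 AP-1 genes, the fold change was above 0 for 2 in F1 and for 6 in F2.

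The EGR factors bind a GC-rich site and are induced by ERK signalling. Egr1 had 448, 280.4 and 347 CPM in F1 METH mice, against 534, 426, 198 and 454 CPM in F1 saline mice. In F2 it had 365, 380.2, 522 and 420.4 CPM in METH mice, against 240.2, 561, 536 and 318 CPM in saline mice. Within each generation the METH libraries lay inside the saline range, and the log2 fold changes were -0.17 (SE 0.30) in F1 and 0.04 (SE 0.24) in F2. Egr2 averaged 26.2 ± 15.1 CPM in F1 METH and 36.5 ± 19.2 CPM in F1 saline, and 47.8 ± 12.4 CPM in F2 METH and 44.6 ± 25.5 CPM in F2 saline (SD, n = 3, 4, 4 and 4). In F1 the log2 fold change was -0.18 (SE 0.14) for Egr3 and -0.10 (SE 0.43) for Egr4. All 4 EGR genes were below 0 in F1 and 3 of 4 above 0 in F2, none past the test.

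**Figure D2:**
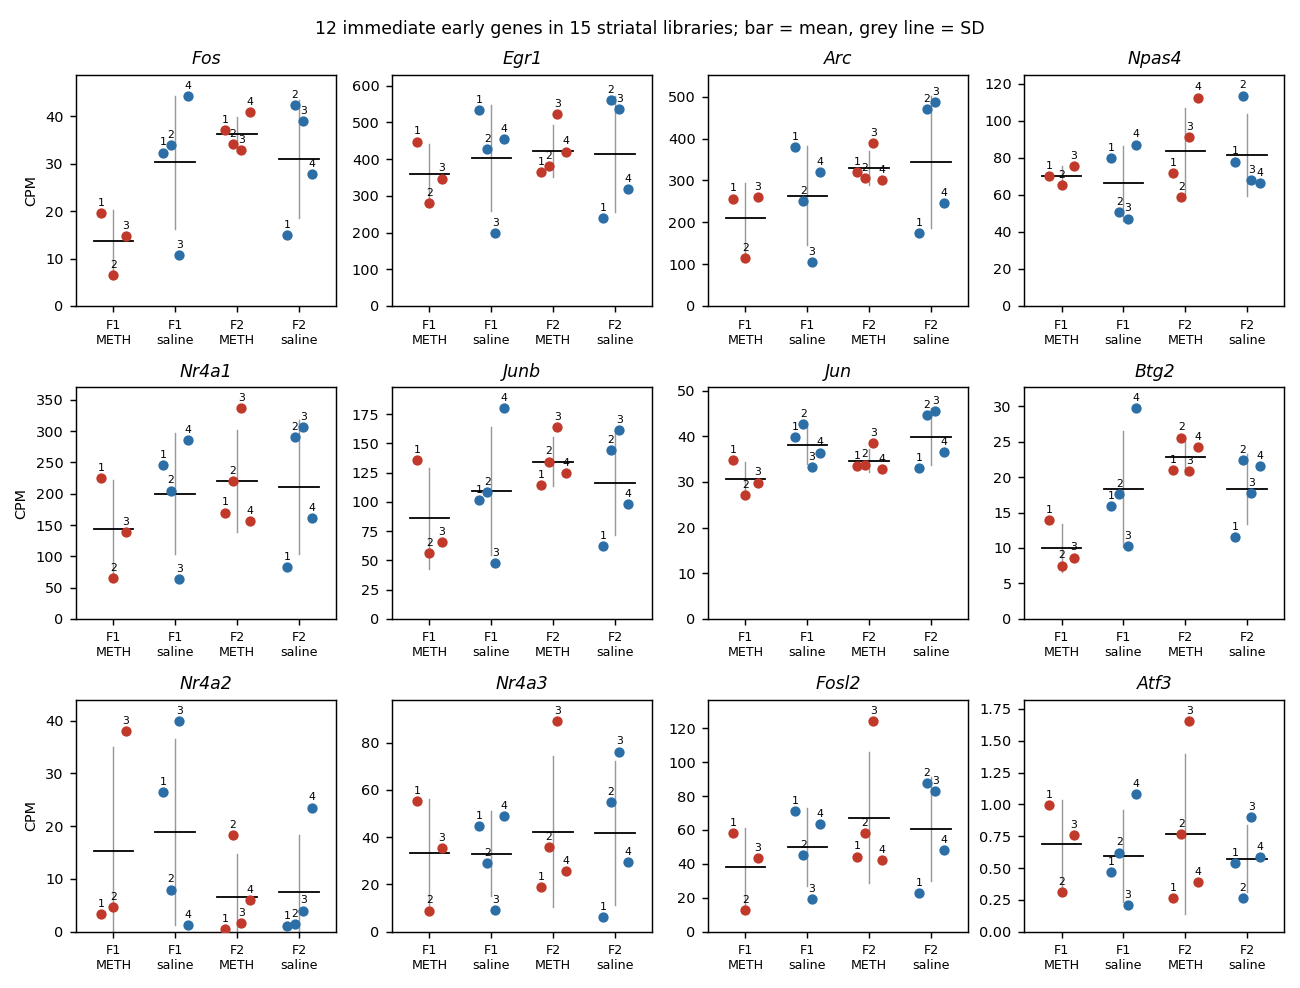
CPM in each library for the members described in full, with METH left of saline in each generation; numbers are the replicate, the horizontal bar is the mean and the grey line is 1 SD either side of it, ended at 0. Fos in F1 METH lies at 6.55 to 19.6 CPM and in F1 saline at 10.8 to 44.2 CPM, and the groups overlap in every panel.

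The NR4A receptors act without a known hormone ligand and bind the NBRE. Nr4a1 (Nur77) had 225, 65.5 and 138 CPM in F1 METH mice, against 246, 205, 64.1 and 286 CPM in F1 saline mice. In F2 it had 170.0, 220.4, 336 and 156 CPM in METH mice, against 82.9, 290.3, 307 and 161 CPM in saline mice. The groups overlapped in both generations, with log2 fold changes of -0.48 (SE 0.52) in F1 and 0.08 (SE 0.37) in F2. Nr4a3 (Nor1) had 55.2, 8.92 and 35.3 CPM in F1 METH mice and 44.7, 29.1, 9.10 and 48.9 CPM in F1 saline mice. In F2 Nr4a3 had 19.0, 35.9, 89.1 and 25.5 CPM in METH mice and 6.20, 54.7, 76.2 and 29.5 CPM in saline mice. Its log2 fold changes were 0.01 (SE 0.64) in F1 and 0.03 (SE 0.63) in F2, with the group means nearly equal beside spreads of up to 12.3-fold within a group. Nr4a2 (Nurr1) is described with the cortical marker below.

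Among the neuron-restricted genes, Arc encodes a protein that promotes removal of AMPA receptors from synapses. It had 257, 114 and 259 CPM in F1 METH mice, against 380.4, 250.01, 106 and 319.5 CPM in F1 saline mice. In F2 Arc had 319, 306, 389.6 and 302 CPM in METH mice, against 175, 471, 487 and 246 CPM in saline mice. The F2 METH libraries sat in the middle of the F2 saline range, and the log2 fold changes were -0.33 (SE 0.42) in F1 and -0.06 (SE 0.27) in F2. Npas4, a neuronal transcription factor induced by calcium entry, had 70.3, 65.2 and 75.5 CPM in F1 METH mice and 79.6, 50.8, 47.2 and 87.1 CPM in F1 saline mice. In F2 Npas4 had 71.7, 58.9, 91.2 and 112 CPM in METH mice and 77.9, 114, 68.1 and 66.1 CPM in saline mice. These groups overlapped too, with log2 fold changes of 0.09 (SE 0.21) in F1 and 0.04 (SE 0.21) in F2. Nptx2, a secreted pentraxin that clusters AMPA receptors, averaged 29.1 ± 6.54 CPM in F1 METH, 32.1 ± 10.7 CPM in F1 saline, 35.7 ± 10.1 CPM in F2 METH and 34.0 ± 6.35 CPM in F2 saline (SD, n = 3, 4, 4 and 4).

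Btg2 (chr1:134074865-134079155 on GRCm38.p6), which slows cell division and recruits an mRNA deadenylase, had fitted differences of the same sign as Fos in both generations. It had 13.9, 7.51 and 8.65 CPM in F1 METH mice, against 15.9, 17.6, 10.3 and 29.7 CPM in F1 saline mice. F1 METH 1 lay above F1 saline 3, and the other METH libraries lay below every saline library. The log2 fold change was -0.87 (SE 0.35, unadjusted p = 0.0372, edgeR adjusted p = 0.994). In F2 Btg2 had 21.0, 25.6, 20.8 and 24.2 CPM in METH mice, against 11.5, 22.4, 17.7 and 21.6 CPM in saline mice. The lowest METH library lay below 2 of the saline libraries, and the log2 fold change was 0.33 (SE 0.18, edgeR adjusted p = 0.96). The F2 effect minus the F1 effect was 1.19 (SE 0.41), with an unadjusted p of 0.0111 and an adjusted p of 0.898. Gadd45b and Gadd45g, stress-induced proteins linked to DNA demethylation, had smaller fitted differences: the log2 fold change of Gadd45b was -0.07 (SE 0.18) in F1 and 0.05 (SE 0.14) in F2, and that of Gadd45g -0.17 (SE 0.26) in F1 and -0.06 (SE 0.11) in F2.

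The MAP kinase phosphatases remove the signal that induces them. All 4 were below 0 in F1: Dusp1 averaged 27.7 ± 7.55 CPM in F1 METH and 38.6 ± 15.2 CPM in F1 saline, a log2 fold change of -0.47 (SE 0.32), and Dusp5, a nuclear phosphatase for ERK, had -0.49 (SE 0.38). In F2 Dusp1 averaged 39.3 ± 1.65 CPM in METH and 33.8 ± 8.05 CPM in saline (SD, n = 4 each), with a log2 fold change of 0.23 (SE 0.15), while Dusp4, Dusp5 and Dusp6 lay at or below 0. The Kruppel-like factors Klf2, Klf4 and Klf10, of which Klf2 and Klf4 are also endothelial genes induced by blood flow, had F1 values of -0.08 (SE 0.50), -0.19 (SE 0.43) and -0.19 (SE 0.22). In F2 they had 0.20 (SE 0.24), -0.11 (SE 0.24) and -0.26 (SE 0.15). Ier2, Ier3 and Ier5 were all below 0 in F1, the lowest being Ier2 at -0.44 (SE 0.30). Sik1, a kinase that restrains CREB signalling through its coactivators, had -0.32 (SE 0.37) in F1 and 0.14 (SE 0.18) in F2. Trib1, a pseudokinase, Csrnp1, a nuclear protein, and Tiparp, an ADP-ribosyltransferase, lay between -0.10 and 0.03 in F1 and between -0.30 and -0.11 in F2. None of these members had an unadjusted p under 0.05 in either generation.

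Most members varied between mice of the same group by more than the typical gene did. The pooled within-group SD of log2 CPM had a median of 0.51 over the members and 0.21 over all genes tested, and 32 of the 35 members lay above the median of all genes (31 or 32 when any 1 library was left out). An SD of at least 0.5 was reached by 18 members, against 19.4% of all genes. The widest were Nr4a2 (SD 2.102), Nr4a3 (1.28), Fosl2 (0.90), Atf3 (0.87), Egr2 (0.87) and Nr4a1 (0.83). The narrowest were Jund (0.15), Ier5 (0.16) and Jun (0.18).

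The highest library of a group exceeded the lowest by a median over the members of 2.097-fold in F1 METH, 2.70-fold in F1 saline, 1.43-fold in F2 METH and 2.05-fold in F2 saline. Over all genes the same medians were 1.29, 1.35, 1.28 and 1.32. Such a ratio cannot fall as libraries are added, and F1 METH had 3 libraries against 4 in each other group. At least 2-fold between the highest and lowest was reached by 19 members in F1 METH, 25 in F1 saline, 9 in F2 METH and 18 in F2 saline, against 17.2%, 23.2%, 19.1% and 21.5% of all genes. The F2 METH mice thus varied least. The SD of log2 CPM was smaller in F2 METH than in F2 saline for 25 of 35 members (57.7% of all genes). When any 1 library was left out, it was smaller for 21 to 30 members (50.8% to 65.1% of all genes). In F1 it was smaller in METH than in saline for 24 of 35 members (51% of all genes). That number fell to 11 without F1 saline 3 (46.5% of all genes) and to 17 without F1 METH 3 (66.5%). Without F1 saline 4 it was 19 (41.7%). The F1 order therefore rests on single libraries. These comparisons of SD were made after the values were seen and carry no test.

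**Figure D3:**
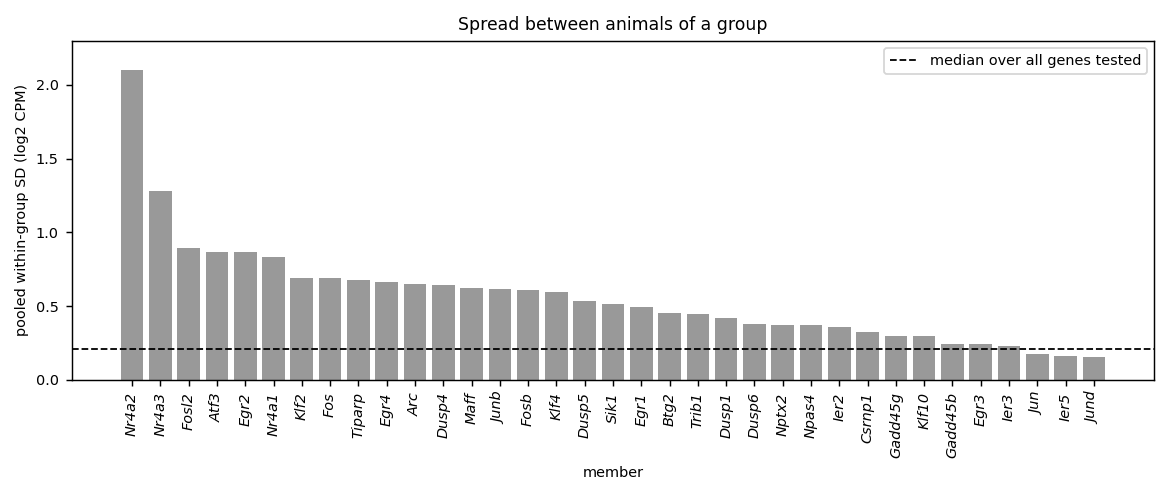
Bars give the SD of log2 CPM within groups, pooled over the 4 groups, for each of the 35 members, and the dashed line marks the median over all genes tested, 0.21. Of the 35 bars 32 rise above the line, from Nr4a2 at 2.102 down, and Jun, Ier5 and Jund, at 0.15 for Jund, stay under it.

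The same mice were low or high for most members. F1 METH 2 was the lowest of its group for 29 of the 35 members, against 30.8% of all genes; F1 saline 3 for 27, against 27.4%; and F2 saline 1 for 26, against 24.5%. F1 METH 1 was the highest of its group for 27 members, against 32.3% of all genes, and F2 METH 3 for 23, against 27.4%. When each member was centred on its group mean and scaled by its SD, the mean over members was 0.833, -0.959 and 0.125 in the F1 METH mice and 0.668, 0.068, -1.33 and 0.593 in the F1 saline mice. It was -0.397, -0.048, 0.491 and -0.046 in the F2 METH mice and -1.12, 0.672, 0.547 and -0.097 in the F2 saline mice. Each group except F2 METH therefore held 1 mouse far below the rest.

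**Figure D4:**
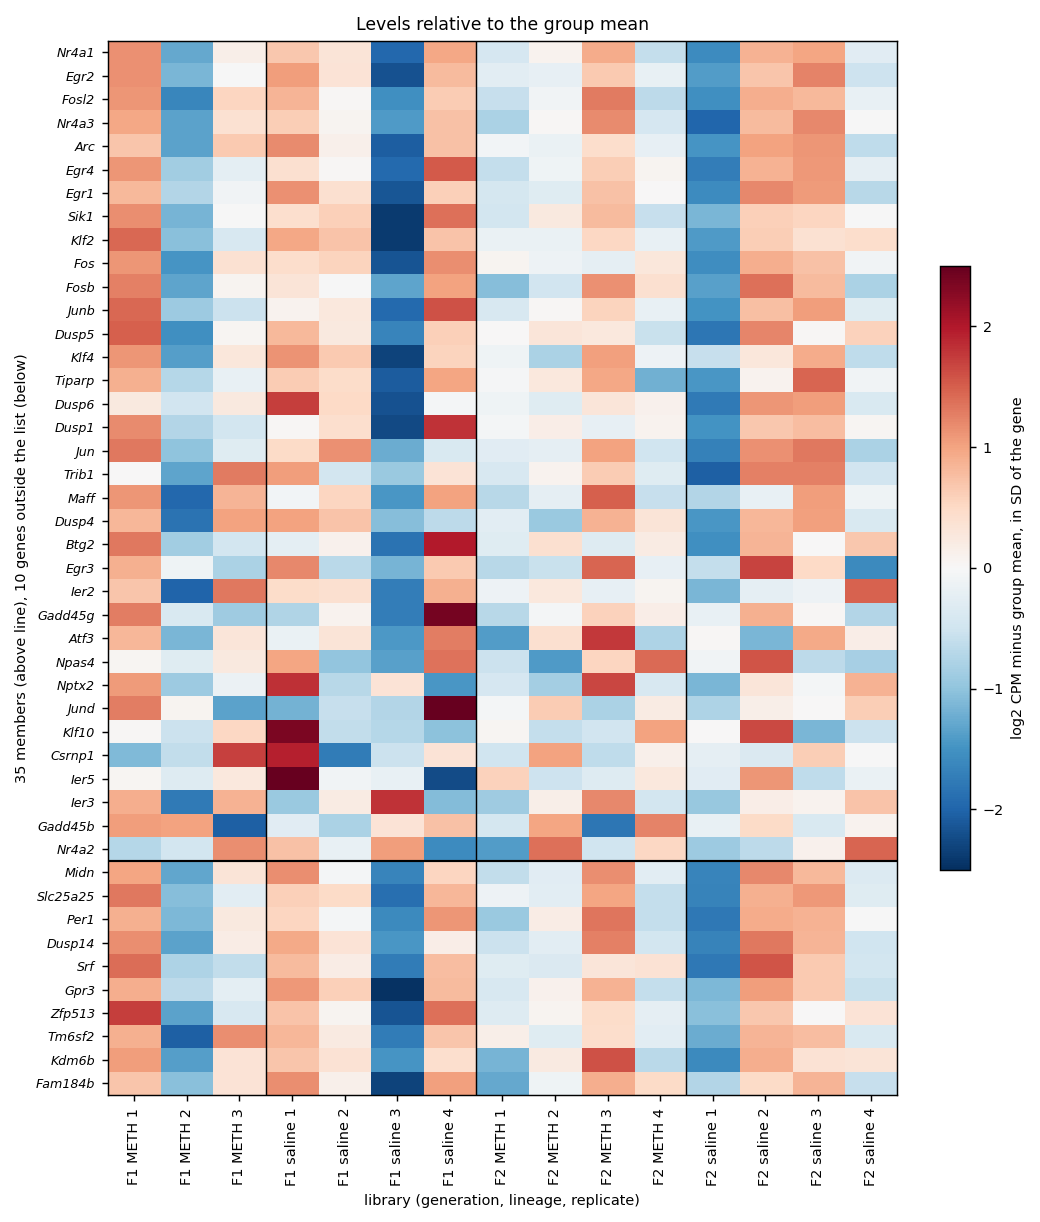
Level of each member in each of the 15 libraries, as log2 CPM minus the group mean in units of the gene's SD (colour, red above and blue below), with METH left of saline in each generation and the 10 most alike genes outside the list under the line. F1 METH 2, F1 saline 3 and F2 saline 1 are low across most members, with means over members of -0.959, -1.33 and -1.12.

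Members that moved together did so across the 15 libraries after group means were removed. The median Pearson r over the 595 pairs of members was 0.55, with 497 pairs above 0 and 149 at or above 0.8, against a median of -0.01 between members and other genes. It was 0.65 within F1, 0.53 within F2 and 0.44 without F1 saline 3 and F2 saline 1, the libraries whose mean over the members lies farthest from the group mean. These correlations describe libraries that share normalization and, within a generation, a table, and no p is given. Nr4a1 followed the mean of the other members most closely (r = 0.976), then Egr2 (0.968), Fosl2 (0.956), Nr4a3 (0.952) and Arc (0.949), and 19 members reached 0.8. At the other end, 7 members were under 0.3: Jund (0.269), Klf10 (0.245), Csrnp1 (0.187), Ier5 (0.096), Ier3 (0.064), Gadd45b (-0.153) and Nr4a2 (-0.159).

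Outside the list, 86 of 19273 genes (0.446%) had an r of at least 0.8 with the mean of the members over the 15 libraries. The most alike was Midn, which encodes midnolin, a protein that carries immediate early proteins to the proteasome (r = 0.975, Spearman rho = 0.954, r = 0.955 without the 2 farthest libraries). Next came Slc25a25, a mitochondrial ATP-Mg/phosphate carrier (r = 0.953, rho = 0.879), the clock gene Per1 (r = 0.946, rho = 0.882) and the phosphatase Dusp14 (r = 0.946, rho = 0.918). Srf, the factor that binds the CArG box, followed (r = 0.922, rho = 0.914, r = 0.843 without the 2 libraries). Gpr3 (0.922), Zfp513 (0.913), Tm6sf2 (0.910), Kdm6b (0.908) and Fam184b (0.904) completed the 10 highest by r. By Spearman's rho, 5 of these 10 stayed among the 10 highest. Of 34 other activity-regulated and late response genes tested, 3 reached 0.8 (Per1, Spry2 at 0.881 and Per2 at 0.831) and the median r was 0.224. Of 34 upstream regulators, 2 did (Srf and Mef2d, 0.803), with a median of 0.329.

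Nr4a2 (chr2:57106830-57124003 on GRCm38.p6) departed from the other members and followed the cortical marker Slc17a7. It had 3.25, 4.60 and 38.0 CPM in F1 METH mice, against 26.4, 7.99, 39.9 and 1.29 CPM in F1 saline mice. In F2 it had 0.447, 18.3, 1.56 and 5.95 CPM in METH mice, against 1.05, 1.48, 3.99 and 23.5 CPM in saline mice. The high mice, F1 METH 3, F1 saline 1, F1 saline 3, F2 METH 2 and F2 saline 4, were spread over all 4 groups, and the log2 fold changes were -0.30 (SE 1.08) in F1 and -0.17 (SE 1.06) in F2.

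Slc17a7 encodes VGLUT1, the vesicular glutamate transporter of cortical excitatory neurons, whose cell bodies the striatum lacks. It had 30.8, 24.0 and 397 CPM in F1 METH mice, against 322, 97.9, 529.5 and 9.44 CPM in F1 saline mice. In F2 it had 10.8, 131, 74.2 and 67.1 CPM in METH mice, against 10.5, 9.81, 56.3 and 183 CPM in saline mice. Within each generation the mice highest in Nr4a2 were those with Slc17a7 above 100 CPM, 5 in all.

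With group in the model, edgeR called 697 of 19307 genes as associated with log2 Slc17a7 level, 3.61% of those tested, and 576 of them (2.98%) with a positive slope. Among the 35 members Nr4a2 was the 1 called, with a slope of 0.95 log2 units per log2 unit of Slc17a7 (SE 0.09, edgeR adjusted p = 1.62e-05). The slope was 0.85 in F1 alone and 1.12 in F2 alone, 1.00 without F1 saline 3 and F1 saline 4, the 2 libraries farthest from the median in Slc17a7, and 0.90 to 1.00 when any 1 library was left out. Without F1 METH 3, F1 saline 3 or F1 saline 4 the genes called numbered 272, 352 and 400. Slopes were positive for 10 members (47.8% of all genes) and negative for 25 (52.2%), with a median of -0.03, but positive for 23 without F1 saline 3 and for 16 without F1 METH 1, so their direction rests on single libraries. Gadd45g had a slope of -0.10 (SE 0.03, edgeR adjusted p = 0.0804) and was called by DESeq2 (adjusted p = 0.0240), in F1 alone (edgeR adjusted p = 0.0463) and without F2 METH 1 (edgeR adjusted p = 0.0146). Of 15 cortical excitatory neuron markers other than Slc17a7, 10 were called with a positive slope, and of 16 spiny projection neuron markers 7 were called with a negative one.

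**Figure D5:**
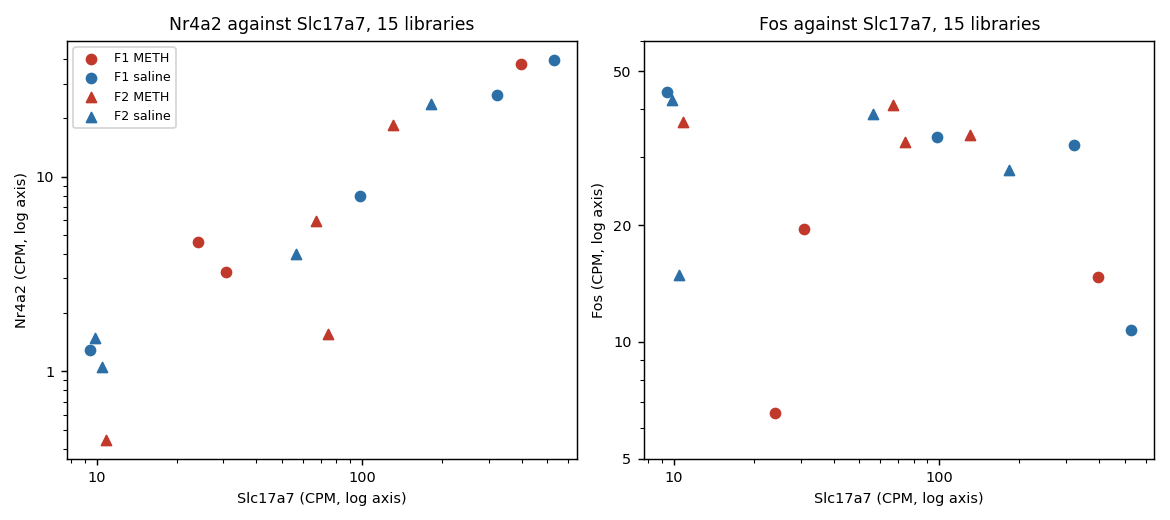
CPM of Nr4a2 (left) and of Fos (right) against CPM of Slc17a7 in each of the 15 libraries, all on log axes, with METH in red and saline in blue, F1 as circles and F2 as triangles. Nr4a2 follows Slc17a7 with a fitted slope of 0.95, while Fos is low both in libraries with much and in libraries with little Slc17a7.

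Other activity-regulated genes were compared in the same fits. Of 34 other activity-regulated and late response genes tested, 0 were called in F1 or F2; 14 were above 0 in F1 and 16 in F2. Among those with an unadjusted p under 0.05, 4 in F1 and 3 in F2, were the clock gene Per2 at 0.68 in F1 and Rasd1, a small G protein, at -0.73 in F2. Against Slc17a7, 6 of the 34 were called, all with a positive slope, led by Bdnf, a neurotrophin that cortical axons deliver to the striatum (slope 1.00, SE 0.06, edgeR adjusted p = 1.73e-07). Of 34 upstream regulators, 0 were called in either generation, with 20 above 0 in F1 and 21 in F2.

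Markers of other cell types and states were fitted in the same way, and their part in the results was not tested. In F1, fold changes were above 0 for 9 of 10 endothelial, 7 of 8 microglial, 6 of 7 astrocyte and 7 of 7 oligodendrocyte markers, and for 0 of 5 erythrocyte markers. In F2 they were above 0 for 3 of 10 endothelial markers, 0 of 8 microglial, 0 of 7 astrocyte and 0 of 7 oligodendrocyte markers. Cortical excitatory neuron markers were below 0 for 13 of 16 in F1, with a median of -0.56, and above 0 for 9 of 16 in F2, while spiny projection neuron markers were above 0 for 15 of 16 in each generation. Of 8 glucocorticoid responsive genes, which stress hormones induce, 6 were above 0 in F1 with 1 at an unadjusted p under 0.05, and 6 were below 0 in F2, with a median of -0.36 and 5 at an unadjusted p under 0.05. Their F2 effect minus the F1 effect had a median of -0.74, with 5 of 8 at an unadjusted p under 0.05. They summed to 218 to 279 CPM in F1 METH and 172 to 233 CPM in F1 saline, and to 143 to 165 CPM in F2 METH and 155 to 258 CPM in F2 saline. Heat shock chaperones, some of which are also induced within minutes of stress, were below 0 for 7 of 8 genes in F1. They were below 0 for 8 of 8 in F2, and 4 of 8 had an unadjusted p under 0.05 in each generation. The 8 chaperones summed to 1537 to 1746 CPM in F1 METH and 1692 to 2313 CPM in F1 saline, and to 1627 to 2272 CPM in F2 METH and 1793 to 2764 CPM in F2 saline. Hspa1b had 7.72, 6.58 and 5.32 CPM in F1 METH mice against 12.2, 10.1, 11.2 and 7.36 CPM in F1 saline mice, and 10.3, 9.41, 10.7 and 8.21 CPM in F2 METH mice against 15.7, 46.6, 29.5 and 8.11 CPM in F2 saline mice. Clock genes were above 0 for 8 of 10 in F1, with 8 of the 10 at an unadjusted p under 0.05, and for 7 of 10 in F2, with 0 of the 10 at that level. The 10 clock genes summed to 1519 to 1654 CPM in F1 METH and 1168 to 1556 CPM in F1 saline. The 5 erythrocyte genes, which include haemoglobins, summed to 123 to 169 CPM in F1 METH and 115 to 842 CPM in F1 saline, with the highest value in F1 saline 4, the F1 library highest in Fos. None of these markers passed an adjusted p of 0.05 for METH in either generation.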

How the data were processed

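Total RNA from the striatum of 15 mice was sequenced, 1 library per mouse. The submitters' processing notes name the build mm10 and the tools HISAT2 2.1.0, StringTie 2.1.3b, Trimmomatic and bcl2fastq 2.20.0; no source used here gives their order and settings, the strandedness or the way counts were made. Without strand, reads of overlapping and antisense genes cannot be told apart. The labels call the cells neuronal although the tissue is whole striatum. Per the file headers, the authors deposited counts, FPKM and TPM for 45777 features in 1 table per generation. The deposited counts are whole numbers and were used as raw counts; the deposited TPM was used for levels between genes, and the deposited FPKM was not used.

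The members and all gene lists were chosen with earlier results of these data known. Sample titles gave the groups and replicate numbers. The main test was the quasi-likelihood F test of edgeR 4.0.16 in R 4.3.3, with TMM scaling and a filterByExpr minimum count of 10. A gene was called at a Benjamini-Hochberg adjusted p below 0.05. F1 and F2 were fitted separately; the difference was an interaction over 15 libraries. Association with Slc17a7 was fitted over 15 libraries with the 4 groups as terms. A standard error is the log2 fold change divided by the square root of its F value. Spread and likeness used log2 CPM with a prior count of 2. Values per library were given for Fos, Egr1, Arc, Npas4, Nr4a1 and Junb, for members with an unadjusted p under 0.05 or called against Slc17a7, and for the 4 with the largest SD. Outside the members, the 10 genes with the highest r and up to 2 per list and generation with the smallest p were named; Bdnf, Spry2, Mef2d and, among the members, Gadd45g were singled out after their values were seen. Alternatives were DESeq2 1.42.0, limma-voom (limma 3.58.1), DESeq2 size factors, fits without a filter or with mean CPM at or above 1, Slc17a7 as a covariate, leaving out libraries and a replicate block. The 21 replicate pairs all differed by more than counting noise (chi-square per degree of freedom 16.1 to 65.8). Promoter sequences came from RefSeq on GRCm38.p6. The scripts were tested on simulated counts. Figures used matplotlib 3.10.9 in Python 3.11.15.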

Additional observations from a re-analysis of the deposited data

Results flagged for a closer look

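Over 35 members and 3 groups of 4 mice, 9 of 105 groups had 1 library standing apart by Dixon's test at 95%; chance gives about 1 in 20 for independent groups, a rate that cannot be applied here because the members vary together (median r over pairs 0.55). In 5 of the 9 the library was F2 METH 3, the highest of its group. There Jun was 38.5 CPM beside 32.9 to 33.8 CPM in the other F2 METH mice, Maff 1.28 CPM beside 0.525 to 0.640 CPM, and Egr2 66.2 CPM beside 40.4 to 42.6 CPM. Nptx2 was 50.7 CPM there beside 28.7 to 31.9 CPM, and Klf2 7.70 CPM beside 5.76 to 5.78 CPM. Nr4a2 was 23.5 CPM in F2 saline 4 beside 1.05 to 3.99 CPM in the other F2 saline mice. In F1 saline, Jund was 193 CPM in mouse 4 beside 135 to 143 CPM, Klf10 30.1 CPM in mouse 1 beside 16.3 to 17.5 CPM, and Klf2 3.07 CPM in mouse 3 beside 11.5 to 12.7 CPM. The groups of 3 F1 METH mice are too small for this test.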

How the results depend on the processing

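Litters, hour of collection and strand are unknown, and 3 or 4 mice per group leave standard errors of 0.06 to 1.08 log2 units, so small effects were not detectable. No member was called for METH in any alternative tried. Genes called in F1 numbered 11 by DESeq2, 3 by limma-voom, 1 without libraries with Slc17a7 above 100 CPM and 0 to 2 when 1 library was left out; in F2 the same counts were 7, 1, 1 and 0 to 1, and 4 without F2 saline 2 and F2 saline 3. For the difference they were 7 by DESeq2, 0 to 2 when 1 library was left out, and 0 with a mean CPM of at least 1, limma-voom, Slc17a7 as a covariate, without libraries above 100 CPM, without the pair high in chaperones, and with a replicate block. With a mean CPM of at least 1, 33 members were tested in F1. Of these, 3 were above 0 and 30 below, and 30 were also below 0 in the main fit. Members above 0 in F1 numbered 3 of 35 by limma-voom and without libraries above 100 CPM. When 1 library was left out they numbered 2 to 14 in F1 and 18 to 32 for the difference. In F2 that range was 9 to 25 (9 without F2 saline 1, 10 without F2 METH 3). For mice of equal replicate number, the r of deviations from the group mean ran from -0.07 to 0.35, the highest for F1 replicate 3. F1 saline 3 and F1 METH 3 were each the highest of their group in Slc17a7, at 529.5 and 397 CPM. The part of Slc17a7 level in this r was not tested. The replicate number is a running number from the sample titles. In F1 replicate 3 it joins saline animal 6 and METH animal 9. With so few pairs and such a number, the r cannot decide whether these mice share a litter or day. The saline mice bear the same animal numbers in both generations, and METH animal numbers 2 and 9 also recur. The labels do not say whether this marks descent. The replicate block, which used the same running number, put 10 members above 0 in F1, 22 in F2 and 23 in the difference. With it 0 members were called. Genes called against Slc17a7 numbered 1270 by DESeq2, 318 without the 2 farthest libraries, 74 in F2 alone and 272 to 800 when 1 library was left out. Members called numbered 2 by DESeq2, 2 in F1 alone and 1 to 2 when 1 library was left out, and positive slopes 25 without the 2 farthest libraries, 28 in F2 alone and 9 to 23 when 1 library was left out. By Spearman's rho, 5 of the 10 most alike genes were shared. Leaving out each library for the spread, and for the order of the SDs, was added after seeing the data: 31 to 32 members stayed above the all-gene median, and 11 to 28 in F1 and 21 to 30 in F2 had a smaller SD in METH.

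Several members reversed under single alternatives; the cause was not tested. Among these, with all libraries used, F1 values were -0.30 (SE 1.08) for Nr4a2, -0.34 (SE 0.44) for Junb and -0.38 (SE 0.53) for Fosl2. The F2 value of Atf3 was 0.40 (SE 0.55). Each of these values lay within 1 SE of 0. Without libraries above 100 CPM, in F1, Npas4 was -0.021, Nr4a3 -0.28 and Atf3 -0.39; in F2, Egr1 was -0.023, Nr4a1 -0.027, Nr4a2 0.28 and Nr4a3 -0.029. With Slc17a7 as a covariate Nr4a2 was 0.37 in F1 and Nr4a3 -0.18 in F2. By limma-voom Nr4a3 was -0.13 in F1. Arc in F2 was 0.056 by limma-voom, 0.057 with the replicate block and 0.65 without the pair high in chaperones. The slope of Jund was 0.023 in F2 alone. When 1 library was left out, F1 fold changes ranged from -1.51 to -0.81 for Fos, from -1.18 to -0.54 for Btg2, from -0.044 to 0.25 for Npas4, from -0.84 to 0.0076 for Junb, from -2.26 to 0.36 for Nr4a2, from -0.58 to 0.46 for Nr4a3, from -0.82 to 0.036 for Fosl2 and from -0.16 to 0.66 for Atf3. In F2 they ranged from -0.15 to 0.22 for Egr1, from -0.28 to 0.15 for Arc, from -0.13 to 0.25 for Npas4, from -0.21 to 0.31 for Nr4a1, from -1.49 to 1.59 for Nr4a2, from -0.63 to 0.49 for Nr4a3, from -0.32 to 0.39 for Fosl2 and from -0.27 to 0.72 for Atf3. The difference ranged from 1.06 to 1.74 for Fos and from 0.86 to 1.504 for Btg2.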

Other observations

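For Npas4 the deposited TPM and the counts of the same library disagree. The ratio of the METH mean to the saline mean lay on the same side of 1 in CPM and in TPM for 32 of the 35 members in F1 and for 33 of the 35 in F2. The exceptions were Nr4a3, Npas4 and Csrnp1 in F1 and Maff and Dusp5 in F2. Apart from Npas4 their ratios lay close to 1. In F1 they were 1.005 in CPM and 0.975 in TPM for Nr4a3, and 1.02 and 0.989 for Csrnp1. In F2 they were 0.998 in CPM and 1.03 in TPM for Maff, and 0.992 and 1.001 for Dusp5. For Npas4 in F1 the ratio was 1.06 in CPM and 0.820 in TPM, and in F2 it was 1.03 in CPM and 1.31 in TPM. Npas4 had 16.2, 27.3 and 19.1 TPM in F1 METH mice, against 27.1, 16.4, 19.1 and 39.1 TPM in F1 saline mice. In F2 it had 36.5, 25.4, 28.0 and 57.4 TPM in METH mice, against 30.5, 35.4, 24.6 and 21.7 TPM in saline mice. F1 METH 1 and F1 METH 3, at 70.3 and 75.5 CPM, stood above F1 METH 2 at 65.2 CPM in counts and under it in TPM.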
